A study of Bos taurus with 2 samples.

Results

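The strongest short H3K4me3 peaks that tender and tough beef muscle share were defined from the deposited peak lists as 546 pairs of peaks out of 9252 pairs that overlapped one to one on chromosomes 1 to 29 (5.90%). A pair was kept when its SICER score reached 180 in at least 1 group and its length was below 5000 bp in both groups, so scores and lengths chose the members and are given as a description, with no test. The muscle was the longissimus dorsi (LD) of Aberdeen Angus steers, about 12 months of age, taken right after harvest. Chromatin of the 4 steers with the lowest Warner-Bratzler shear force among 19 measured (6.77 ± 0.56 kg, the force that cuts a cooked core of the meat) was pooled as the tender library, and chromatin of the 5 steers with the highest shear force (19.93 ± 0.39 kg) as the tough library. Both pools, crosslinked and sonicated, were cut to single nucleosomes with micrococcal nuclease and immunoprecipitated with the same antibody against H3K4me3. Since pooling left 1 library a group, the spread between steers is unknown and none of the differences below could be checked against replicates.

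H3K4me3 is histone H3 with 3 methyl groups on lysine 4. Methyltransferase complexes of the SET1 and MLL families place it on nucleosomes beside transcription start sites, above all at promoters rich in CpG, and it is read there by general transcription factors. At most active promoters the mark forms a compact block over the first nucleosomes, while much wider blocks are known from genes that define a cell type. Whole muscle holds fibres as well as satellite cells, fibroblasts, endothelial and blood cells, so more cells with the mark and more of the mark per cell cannot be told apart. The lists name no genome build and no annotation could be matched to them, so the regions are given by position without genes or sequence. Positions are counted from 1, so each start and end is 1 more than in the lists. A position is that of the tender peak unless the tough peak is named.

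The score adds up, for the 200 bp windows that make a peak, how improbable each window's reads are under a Poisson background, as a negative natural log. The lists held 12930 tender and 11535 tough peaks, and the scores of peaks 1 window long (16 tender and 4 tough peaks) gave a mean of 0.157 reads per window for the tender library and 0.182 for the tough library, a ratio of 1.17. At the same number of reads a window therefore scores less in the tough library. No read totals are in the lists. The score and number of windows of a peak nevertheless limit its reads from below (all but single reads in 1 window) and above (an even spread). For the 546 pairs the median of the lowest possible number of reads was 47 for tender peaks and 39 for tough peaks, and the median of the highest was 70 and 59.5. Most of these peaks thus rested on fewer than 100 reads. The intervals below cover counting error of pairs only, and not the error in these reads.

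Of the 546 pairs, 121 (22.2%) reached a score of 180 in both groups, 365 (66.8%) in the tender group only and 60 (11.0%) in the tough group only. Of the tender peaks at the limit, 24.9% had a tough partner at the limit (121 of 486), and of the tough peaks at the limit 66.9% had a tender partner at it (121 of 181). This split depended on where the limit was set. With the tough limit lowered to 150.4, the score that as many tough as tender peaks of the one-to-one pairs reached, 231 pairs (32.1%) reached it in both groups, 255 (35.4%) in the tender group only and 234 (32.5%) in the tough group only. With the tough limit raised to 209.8 in proportion to depth, the numbers were 58, 428 and 10. All strong short peaks had a partner, since 0 of 587 tender and 0 of 200 tough autosomal peaks within the limits lacked an overlap with the other list. Of these, 33 tender and 9 tough peaks overlapped peaks in a way that was not one to one and were left out. The remaining 554 tender and 191 tough peaks were in one-to-one pairs. Members held 486 and 181 of them, since the partner also had to be below 5000 bp. The share of all 12930 tender and 11535 tough peaks that lacked an overlap was not counted. Having a partner can therefore not be called particular to the strong short peaks.

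**Figure D1:**
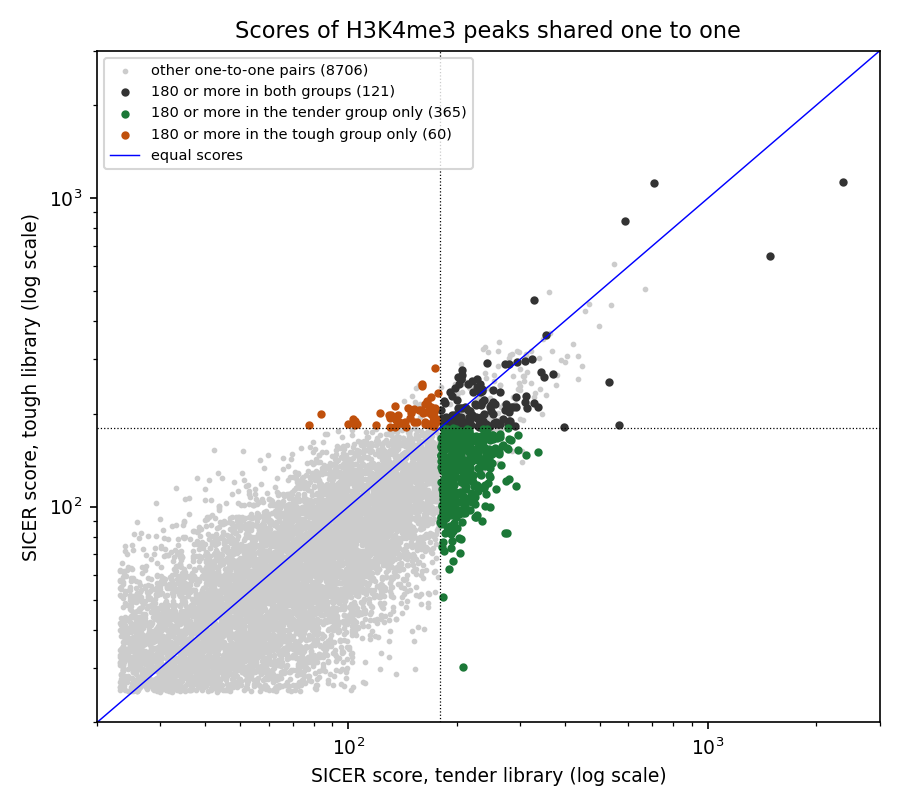
SICER scores of all 9252 one-to-one pairs in the tender (x axis) and tough library (y axis), both on log scales, with 1 point a pair, dotted lines at 180 and a line of equal scores. The 365 green points (tender only) outnumber the 60 orange points (tough only), and 4 black points stand above 500 in both groups.

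The tender score was the higher in 445 of the 546 pairs (81.5%) and in 5882 of all 9252 pairs (63.6%). The median tender score was 203.5 (quartiles 187.5 and 229.4) and the median tough score 154.6 (quartiles 125.6 and 188.1). The median ratio of tender to tough score was 1.39, or 0.47 on the log2 scale, while over all one-to-one pairs it was 0.19. Relative to that shift of all pairs, the members' median was 0.28. The larger set of pairs chosen with the tough limit at equal rank had a median log2 ratio of 0.29, not taken relative to that shift. Pairs at the limit in both groups had a median log2 ratio of 0.12, those in the tender group only 0.64, and those in the tough group only -0.40, an order that the rule itself sets. The tender score was at least 2 times the tough score in 72 members (13.2%, against 7.51% of all one-to-one pairs), and the tough score at least 2 times the tender score in 2 members (0.366%, against 1.82% of all pairs). The rule used both scores, and nothing is read from these shares.

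The pair with the highest lower score was chr25:17729801-17731200, which scored 2371.6 in tender and 1125.1 in tough muscle. Its 7 windows allowed between 354 and 465 tender reads and between 191 and 256 tough reads. It ranked first in each list by score and had the same start and end in both. The pair chr1:61603201-61604800 also had the same edges and was higher in the tough group, at 1115.1 (190 to 260 reads) against 708.3 in the tender group (127 to 174 reads). On chromosome 16 a tender peak of 1400 bp, chr16:34308801-34310200, scored 1485.1 (237 to 314 reads), and its tough partner of 800 bp, chr16:34309401-34310200, scored 648.0 (119 to 147 reads). The tender peak chr7:89222801-89225000 scored 587.5, and the longer tough peak chr7:89222601-89226000 scored 841.6. These 4 pairs thus went in both directions, with the tender score the higher on chromosomes 25 and 16 and the tough score the higher on chromosomes 1 and 7.

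From the fifth pair on, scores were lower and mostly closer to each other. The tender peak chr4:46472001-46476000 scored 354.9 and its tough partner 359.2. At chr28:1893401-1895400 the tender score was 327.5 and the tough score 468.2, a tough to tender ratio of 1.43. It was the only one of these 6 pairs whose scores differed by more than 10%. At chr7:41748201-41752200 the tender score was 324.0 and the tough score 301.2. The lower end of the 10 highest was nearly even between the groups. The tender peak chr8:76789601-76792400 scored 309.4 and its tough partner 297.5. At chr27:26007801-26009600 the scores were 293.9 and 294.3, and at chr3:30853401-30856000 they were 280.1 and 289.7. Between 60 and 119 tender reads and between 63 and 131 tough reads were possible in these 6 pairs.

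**Figure D2:**
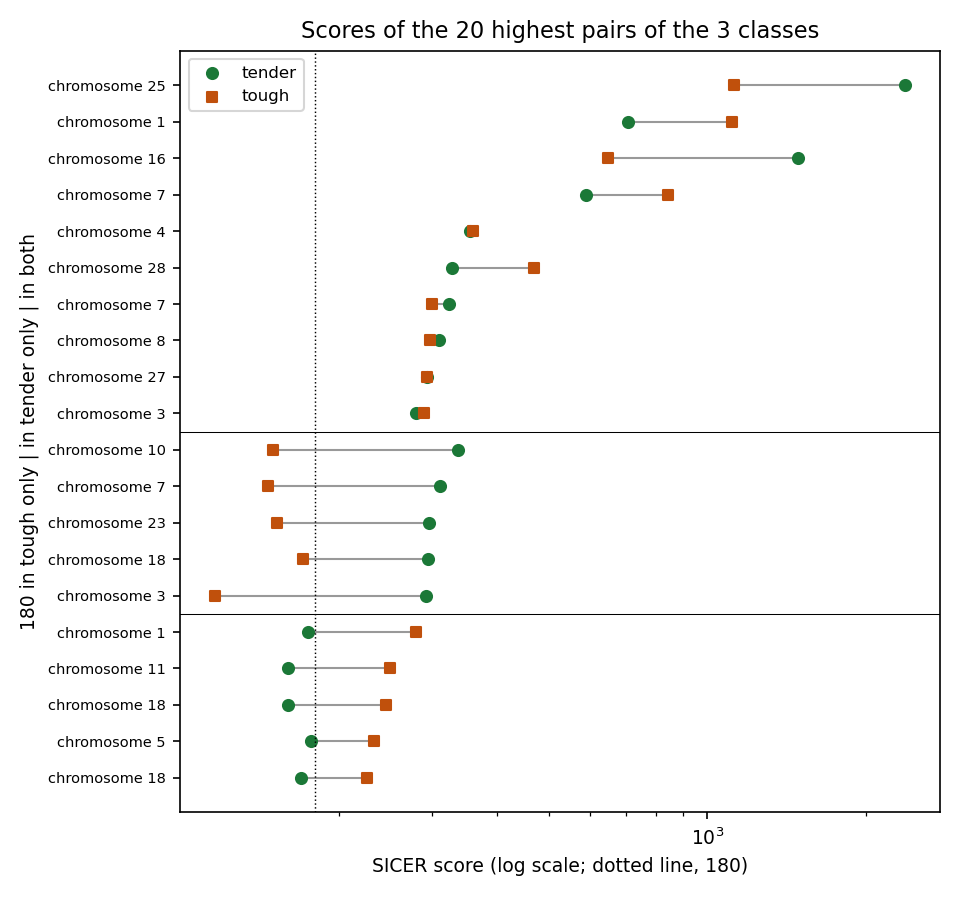
Scores of the 10 pairs with the highest lower score among those at 180 in both groups, and of the 5 highest pairs of the tender only and of the tough only class, on a log axis, with a circle for the tender and a square for the tough library. The upper 4 pairs, on chromosomes 25, 1, 16 and 7, lie between 587.5 and 2371.6, while the lowest of the 10 lies at 280.1 and 289.7.

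Among the 365 pairs that reached the limit in the tender group only, tender scores went up to 336.9 and tough scores from 30.2 to 179.9, with a median tough score of 137.9. The highest was the tender peak chr10:21597001-21601600 at 336.9 (72 to 117 reads), whose tough partner, 2400 bp long against 4600 bp, scored 150.1 (38 to 56 reads). The next were chr7:54667601-54672400 with 311.0 against 146.8 and chr23:27034201-27037600 with 296.8 against 152.9. In all 3 the tough peak was shorter than the tender one. At chr18:52154601-52158000 the scores were 296.0 and 170.9, and at chr3:100399801-100403800 292.4 and 116.4, with tough peaks slightly longer than the tender ones. In 113 of the 365 pairs (31.0%) the tough score was 150 or more, so that the partner lay not far below the limit, and in 28 (7.67%) it was below 90.

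The 60 pairs at the limit in the tough group only had tough scores up to 280.9 and tender scores from 77.6 to 177.2. The highest was chr1:71484001-71485600, with identical edges in both groups, at 280.9 (61 to 85 reads) against 174.6 for its tender partner (41 to 56 reads). It was followed by the tough peaks chr11:49303001-49306400 with 250.5 against 160.6 and chr18:56782601-56785800 with 246.3 against 160.4. The last 2 of the 5 highest were chr5:115177801-115178600, only 800 bp long, with 233.3 against 177.2, and chr18:58146801-58149000 with 226.6 against 169.4. All 5 tender partners lay between 160.4 and 177.2, not far below the limit. Over the whole class 35 of 60 tender scores (58.3%) were 150 or more and 2 were below 90.

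The widest gap between the groups was at chr9:98100001-98101000, where a peak of 1000 bp with the same edges scored 208.3 in tender and 30.2 in tough muscle, a ratio of 6.89. Between 46 and 59 reads were possible there in the tender group and between 11 and 13 in the tough group, so the ranges lay far apart. The next ratios were 3.60 at chr1:82996601-82997800 (183.7 against 51.1), 3.34 at chr15:42718401-42720400 (275.3 against 82.4), 3.33 at chr3:19059801-19061400 (272.7 against 81.9) and 3.07 at chr26:38916801-38918200 (564.5 against 184.1). The last of these was a member at the limit in both groups, with the same edges in both.

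Towards the tough group the widest ratios were smaller. The tough peak chr3:19651401-19654000 scored 199.3 against 83.9 in the tender group, a tough to tender ratio of 2.38. The tough peak chr7:51520201-51523400 scored 184.3 against 77.6, a ratio of 2.37. They were the only 2 members past a factor of 2 in that direction. The next 3 were chr4:43780601-43784000 (192.2 against 102.8), chr18:58228401-58229800 (185.6 against 99.6) and chr22:44181601-44185000 (188.8 against 104.2), with ratios between 1.81 and 1.87. The pair on chromosome 3 lay about 590000 bp from the pair of the opposite direction named above, chr3:19059801-19061400. That distance is not unusual, since the median gap from a member to the nearest other member was 716600 bp. Another member lay closer to the tough peak, 151000 bp away.

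At the limits the members passed into their neighbours without a break. The members just inside the score limit had tender scores of 180.2, 180.4 and 180.5, and the pairs just outside it had higher scores of 179.9, 179.7 and 179.6. Just inside the length limit the longer peak of a pair was 4800 bp and just outside it was 5000 bp. An example inside was the tender peak chr15:56402201-56406200 (249.5 against 204.6), and an example outside was the tender peak chr3:28686601-28689600, whose tough partner of 5000 bp scored 290.0.

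The score per window describes how dense a peak was. Its median was 16.1 for tender peaks (quartiles 12.1 and 20.7) and 10.6 for tough peaks (quartiles 8.44 and 14.3), against 7.73 and 5.63 over all one-to-one pairs. In the 228 strong pairs with a peak of 5000 bp or more, which passed the same score limit, the medians were 8.84 and 6.37. A peak that must reach a fixed score in a shorter length has more score per window, so this order follows from the rule. The density was higher in the tender than in the tough peak in 444 of the 546 pairs (81.3%) and in 6751 of all pairs (73.0%). Score and length, which make up the density, were used by the rule, and nothing is read from these shares. The density is one of score and not of reads, since equal reads score less in the tough library. Of the 60 pairs at the limit in the tough group only, 21 (35.0%) still had the denser peak in the tender group, since 40 of the 60 tough peaks were the longer.

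Among the members the density was lower in longer peaks. In the 70 pairs with both peaks up to 2000 bp the median density was 26.3 (tender) and 17.1 (tough), and in the 105 pairs with a peak above 4000 bp it was 11.7 and 8.21. The median tender score was 201.4 in the shortest and 205.1 in the longest class, and the median tough score 148.4 and 170.0. The share of pairs that reached the limit in both groups was 18.6% (13 of 70) up to 2000 bp, 16.8% (32 of 190) up to 3000 bp, 22.7% (41 of 181) up to 4000 bp and 33.3% (35 of 105) above. In the strong pairs with a peak of 5000 bp or more it was 55.3% (126 of 228). The median log2 ratio of tender to tough score was 0.61 in the shortest and 0.39 in the longest class of members. The rule used score and length, and a score is a sum over windows, so nothing is read from these shares and ratios.

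**Figure D3:**
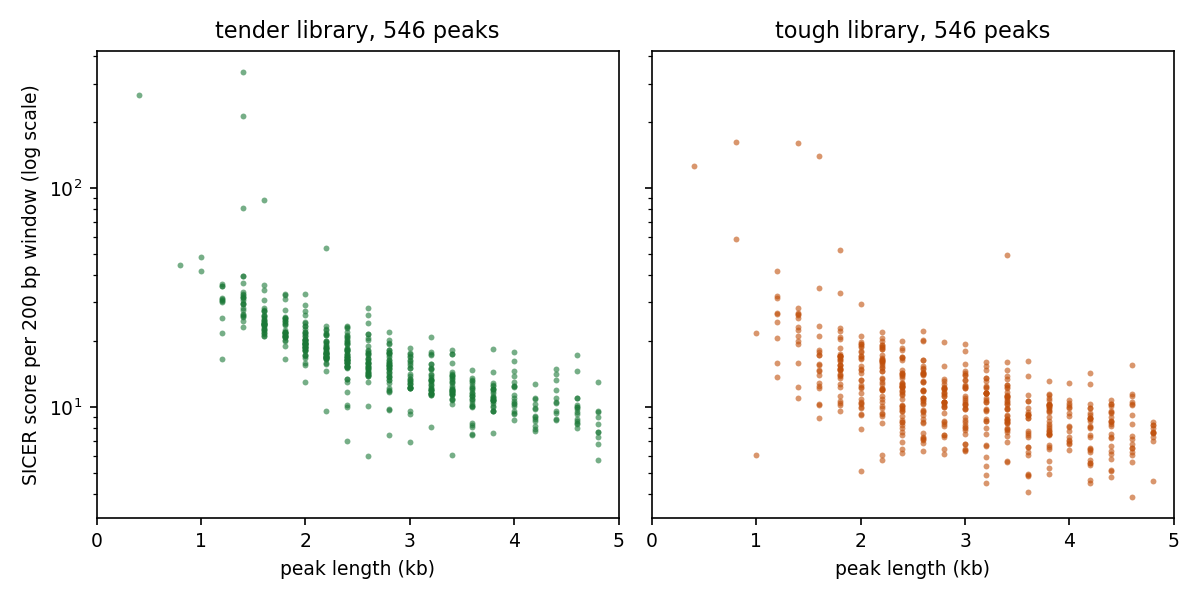
Score per 200 bp window (log scale) against peak length (kb) for the 546 members in the tender (left) and tough library (right), with 1 point a peak. Most points form a band that falls with length around medians of 16.1 and 10.6, and a few peaks stand above it, up to 338.8 (tender) and 162.0 (tough).

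A few short members stood far above that band. With a density of at least 30 in both groups there were 8 members, out of 10 among all one-to-one pairs, at a limit picked once the values were known. The densest by the lower value were the pair on chromosome 16 (212.2 per window in tender and 162.0 in tough muscle) and the pair on chromosome 25 (338.8 and 160.7). The shortest member of all, chr8:112084201-112084600, was only 400 bp long in both groups and had 265.7 and 126.5 per window, with 98 to 108 tender and 55 to 60 tough reads on 2 windows. The pairs at chr1:61603201-61604800 and chr7:89222801-89225000 followed, with 88.5 and 139.4 and with 53.4 and 49.5 per window. The other 3 of the 8 were at chr28:1893401-1895400, chr13:62165401-62166800 and chr5:115177801-115178600. Their gaps to the nearest other peak lay between 2400 and 588400 bp. At the other end, the least dense members were long peaks such as chr18:55875401-55880200, with 7.66 (tender) and 4.51 (tough) per window.

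A second pair of deposited lists, whose peaks end at 87.9 Mb on chromosome X (148.8 Mb in the lists used above) and which match the bosTau4 genome of the study's methods, was set beside these, a step taken once the data were known. They hold peaks of the same 2 libraries, 12452 tender and 11395 tough, so they are no replicate. The same limits gave 559 pairs there, 115 in both groups, 377 in the tender group only and 67 in the tough group only, and the median log2 ratio was again 0.47. A like pair was looked for on the same chromosome, with both scores within 5% and both lengths within 200 bp, without converting positions. Exactly 1 like pair was found for 273 of the 546 members and none for 264 (48.4%). Along the chromosomes 239 of 244 neighbouring matches (98.0%) kept their order.

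The 4 highest members had no like pair in the bosTau4 lists. The 8 members with a density of at least 30 in both groups had a like pair in 1 case, on chromosome 13. With wider limits of 10% and 400 bp, 376 members (68.9%) had at least 1 like pair, but still 0 of the 4 highest and 1 of the 8 densest. In turn, the highest pair of the bosTau4 lists, chr13:58623601-58624800, scored 2782.9 (tender) and 3001.0 (tough), and none of the 7 highest pairs there had a like pair in the other lists. Of the 10 highest members by lower score, the last 4 had a like pair each. The pair at chr27:26007801-26009600 (293.9 and 294.3) had a like pair with 297.7 and 299.8, the pair at chr8:76789601-76792400 one with 316.0 and 303.0, and the pair at chr3:30853401-30856000 one with 281.1 and 295.4. No like pair was thus found for any of the 4 highest members and for 7 of the 8 densest (87.5%), against 48.4% of all members. Positions were not converted, and the cause was not tested.

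The edges of the members were set side by side. The median overlap was 76.9% of the longer peak (quartiles 66.7 and 88.1%), against 69.6% over all one-to-one pairs. Start and end were both identical in 31 members (5.68%, 95% Wilson interval 4.03 to 7.95%) and in 4.51% of all pairs, and both lay within 1 window of each other in 141 (25.8%, 22.3 to 29.7%) and in 21.3% of all pairs. In the strong pairs with a peak of 5000 bp or more this was 7.02% (4.37 to 11.1%). In 293 members (53.7%) the tough peak had the greater length, in 194 (35.5%) the tender peak, and both were equally long in 59. The tough peak was longer in 59.7% of all pairs. The median length was 2600 bp for tender peaks and 2800 bp for tough peaks. The tender score was the higher in 229 of the 293 members with a longer tough peak (78.2%), and in 81.5% of all members. Over all one-to-one pairs with a longer tough peak it was the higher in 56.3%. The rule used both scores, and nothing is read from these shares. The members with identical edges included the pairs on chromosomes 25 and 1 with the highest lower scores.

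**Figure D4:**
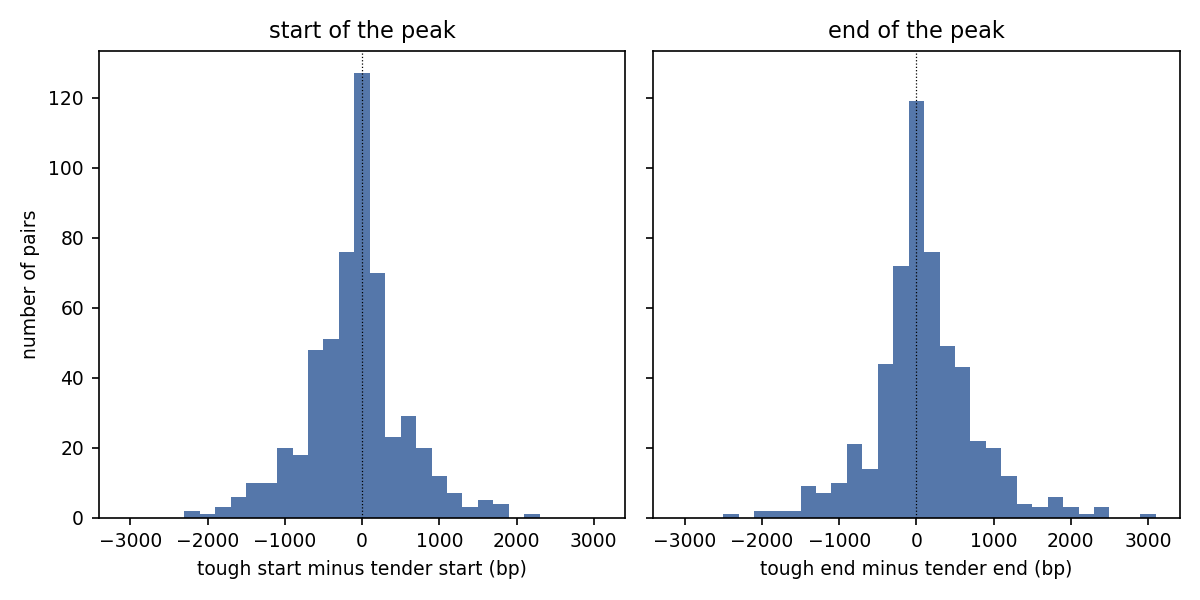
Distance in bp from the tender to the tough start (left) and from the tender to the tough end (right) of the 546 members, counted in windows of 200 bp, with the number of pairs on the y axis. The highest bars are at 0, with 127 starts and 119 ends in the same window.

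Position was not part of the rule apart from the choice of chromosomes. Chromosome 18 held the most members, 47 or 8.61% (95% Wilson interval 6.54 to 11.3%), against 6.42% of all one-to-one pairs. It was followed by chromosomes 7 (44), 3 (43) and 19 (39), and these 4 together held 31.7% of the members and 25.3% of all pairs. On chromosome 25, which has many pairs for its size, the share of members (4.03%) equalled that of all pairs (4.04%). Chromosome 12 had the fewest members, 2 of its 154 pairs, which is 0.366% of the members (0.101 to 1.33%) against 1.66% of all pairs. Chromosome 13 held 1.83% of the members (0.998 to 3.34%) against 3.61% of all pairs, and chromosome 23 1.65% (0.870 to 3.10%) against 3.20%. On these 3 and on chromosome 18 the interval left out the share of all pairs, and on the other 25 it did not. Neighbouring peaks are not independent, 29 intervals were compared, and no test was made.

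By class the counts on single chromosomes were small. The 60 members at the limit in the tough group only included 9 on chromosome 18 and 6 each on chromosomes 3 and 7. Another 5 were on chromosome 22, which had 0 members at the limit in both groups, as had chromosomes 20 and 24. Of all members, 8.61% were on chromosome 18, 8.06% on chromosome 7, 7.88% on chromosome 3 and 2.56% on chromosome 22. No difference between the classes was tested. In the bosTau4 lists chromosome 18 held 44 of the 559 pairs, out of its 573 one-to-one pairs of any score and length. Chromosome 12 held 4 (out of 151), chromosome 13 held 10 (out of 337) and chromosome 23 held 11 (out of 284). No intervals were compared in those lists, so these counts do not repeat the comparison of shares made above.

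**Figure D5:**
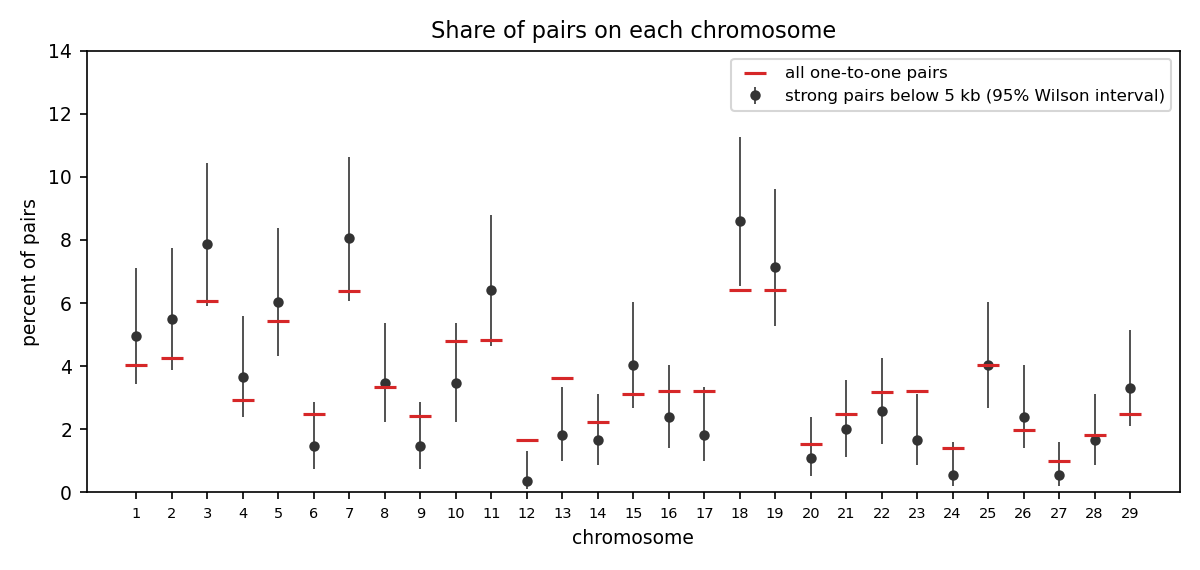
Share of the 546 members on each chromosome (points, with 95% Wilson intervals for counting error) and share of all 9252 one-to-one pairs (dashes), in percent. Chromosome 18 is the highest at 8.61% and chromosome 12 the lowest at 0.366%.

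Members lay among other peaks about as closely as pairs in general. The median gap to the nearest other peak of either list was 24600 bp (quartiles 9050 and 61100 bp), against 23200 bp over all one-to-one pairs and 8200 bp for the strong pairs with a peak of 5000 bp or more. Another peak within 10000 bp was found for 155 members (28.4%, 24.8 to 32.3%), for 31.2% of all pairs and for 53.5% (47.0 to 59.9%) of the strong long pairs. These intervals cover counting error only, the length limit of the rule separates the members from the strong long pairs, and no test was made. Shorter members were farther from other peaks, with a median gap of 39400 bp up to 2000 bp of length and 18800 bp above 4000 bp. The most isolated were chr8:6448801-6450400 (722400 bp from any other peak, with scores of 188.0 and 175.8), chr8:41247801-41250400 (641800 bp, 229.8 and 154.0) and chr4:26447201-26449600 (616600 bp, 248.2 and 99.5).

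The median gap to the nearest other member was 716600 bp, and 93 members (17.0%) had another member within 100000 bp. The closest were the tender peaks chr18:62386401-62390200 (210.3 against 176.2) and chr18:62390801-62393600 (241.3 against 185.4), which with their tough partners left no gap. The next were chr11:72281401-72285200 (197.1 against 146.5) and chr11:72291001-72293200 (194.8 against 83.2), 5800 bp apart. The third were chr18:55925001-55929200 (182.1 against 101.1) and chr18:55936001-55940000 (227.9 against 142.7), 6800 bp apart. Both neighbours had the higher score in the tender group in all 3 cases, as had 81.5% of all members. Of the bins of 1 Mb that held any member, 312 held 1, and 6 held 5, the most. The 6 fullest bins, picked once the values were known, included 3 on chromosome 18, which begin at 47000001, 55000001 and 58000001. The others began at 57000001 on chromosome 5, 27000001 on chromosome 19 and 27000001 on chromosome 25. All one-to-one pairs in these bins were not counted, so many members in a bin cannot be told from many peaks there. Chromosome 18 held 594 one-to-one pairs, or 6.42% of all. In the bin on chromosome 5 all 5 members reached the limit in the tender group only, as did 66.8% of all members. Their tender scores went from 185.5 to 198.7 and their tough scores from 92.8 to 168.6.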

How the data were processed

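H3K4me3 was measured by ChIP-Seq in 1 pooled library a group. By the methods, the authors aligned reads of 25 bp with Maq, allowed 1 mismatch, kept reads with a unique position, removed redundant reads and called peaks with SICER (version 1.1 per the labels, windows of 200 bp, gaps of 400 bp, E-value 100). The deposited values are a SICER score for each peak, not scaled for depth. No control library is named. The alignment is described for bosTau4. The deposit holds 2 pairs of lists with the same window, gap and E-value in their names, one that fits bosTau4 and one of unstated build, and the latter was used here. The members and lists were chosen with earlier results of these data known.

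Peaks that shared 1 bp or more and had no other partner were paired. Mean reads per window came from the distinct scores of single-window peaks, and the bounds on reads from the score and the windows of a peak. Both were tested on simulated data, where 100% of 300 simulated peaks in each group had their reads within the bounds and 160 of 160 planted pairs were found. The bounds were given the simulated mean and the same score formula. Their result therefore checked the code and not the bounds of real peaks. With 1 library a group no test between groups was made. Printed intervals are 95% Wilson intervals of counts of pairs. They do not cover the error in the reads of a peak or the spread between steers. For medians, the intervals used to compare alternatives were 95% binomial intervals. Pairs named in the text follow a fixed rule, namely the 10 highest by lower score, the 5 highest of each single-group class, the 5 widest ratios each way, the 5 densest and 3 least dense, those at the limits, and the closest and most isolated. Further pairs are named as chosen afterwards. Alternatives were score limits of 150 and 250, lengths below 4000 bp or unlimited, an overlap of 50%, a tough limit scaled by depth or set at equal rank, and chromosome X added. The bosTau4 lists, the like pairs and 2 scalings of the ratio were added once the data were known. Python 3.11.15, numpy 2.4.6, pandas 2.3.3, scipy 1.17.1 and matplotlib 3.10.9 were used.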

Additional observations from a re-analysis of the deposited data

Results flagged for a closer look

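The bosTau4 lists hold 559 pairs within the same limits on score and length. They were singled out because the members above were chosen from the other lists, and the bosTau4 lists were only set beside them. Their highest pairs were the one on chromosome 13 (2782.9 tender, 3001.0 tough), one at the first position of chromosome 11, chr11:1-4800 (998.6 and 1738.5), and chr25:11140201-11141800 (816.9 and 1347.9).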

How the results depend on the processing

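With a score limit of 150 there were 1073 members, 344 in both groups, 599 tender only and 130 tough only, with a median log2 ratio of 0.44 and medians of 14.3 (tender) and 10.02 (tough) per window. With a limit of 250 there were 86 members, 15 in both, 58 tender only and 13 tough only, with 18.5 and 13.5 per window and identical edges in 8.14%. Lengths below 4000 bp left 80 members in both groups, with 17.3 and 11.9 per window. Without a limit on length 247 were in both groups, with a log2 ratio of 0.42, 13.4 and 9.20 per window and a median gap of 19400 bp. With the tough limit scaled by depth 58 were in both and 10 tough only, with a log2 ratio of 0.52. At equal rank these were 231, 234 and 0.29. Dividing all tough scores by the depth ratio shifted every log2 ratio by 0.22 and gave 0.69, and centring on the median of all pairs gave 0.28. Of 76 values under 11 alternatives, 46 stayed within 1.5 times the count or within the interval of the reported value, and 30 moved. The log2 ratio stayed above 0 in all alternatives that gave one. Each alternative used scores of the same 2 libraries, which the rule also used. Dividing the tough scores by the depth ratio can only raise the log2 ratio. Nothing is therefore read from its sign. No paired analysis was possible because each group is 1 pooled library. Depth limits single pairs, since most rest on fewer than 100 reads.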

Other observations

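Chromosome X was outside the rule, and 2 of its 222 one-to-one pairs were within the same limits. The tender peak chrX:89972601-89977000 scored 346.5 and its tough partner 411.8, and the tender peak chrX:146048201-146050400 scored 227.3 and its partner 168.6.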
